A study of Mus musculus with 12 samples.

Results

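A set of 9 genes named as adipocyte regulators and lipid handling genes was followed in mouse embryonic fibroblasts treated with a chemical combination, SGCF or 6TCF. The 9 genes were named with earlier results of these data known, and no threshold on their values entered the choice. They are the transcription factor genes Cebpb, Cebpd, Cebpa and Pparg, the lipid genes Lpl, Fabp4, Cd36 and Lpin1, and the adipokine gene Adipoq. All 9 were among the 12393 genes that had a probe set naming them alone, and all 9 were among the 10674 genes tested. The arrays formed 6 groups of 2, namely SGCF at days 0, 5 and 10 and 6TCF at days 0, 5 and 10. Cells of every group were prepared from embryos in serum-containing fibroblast medium and were then moved to a medium with more serum and basic fibroblast growth factor. The sources used here do not name the components of either combination, or the strain and age of the embryos. None of the 12 arrays is labelled as untreated at day 5 or 10, so a change from day 0 cannot be told apart from time in culture or the change of medium. No label states that the 2 replicates of a group were separate embryos or cultures, so p-values measure only the spread between these arrays, which may be technical.

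Fat cells arise from fibroblast-like progenitors through a cascade of transcription factors. C/EBP beta and C/EBP delta, encoded by Cebpb and Cebpd, act early and induce C/EBP alpha (Cebpa) and the nuclear receptor PPAR gamma (Pparg), which sustain each other and switch on the genes of lipid uptake and storage. Among these, Lpl encodes the lipase that frees fatty acids from circulating lipoproteins, Cd36 a fatty acid translocase of the cell surface, Fabp4 the fatty acid carrier of the cytosol, Lpin1 a phosphatidate phosphatase of triglyceride synthesis and Adipoq the hormone adiponectin. In RefSeq's GRCm38.p6 annotation the regulators lie at chr2:167688915-167690432 (Cebpb), chr16:15887286-15889545 (Cebpd), chr7:35119293-35121928 (Cebpa) and chr6:115360879-115490404 (Pparg). The lipid genes lie at chr8:68880555-68906932 (Lpl), chr3:10204342-10208616 (Fabp4), chr5:17781690-17888959 (Cd36) and chr12:16535669-16653903 (Lpin1), and Adipoq at chr16:23146536-23157968. Lpl, Cd36 and Fabp4 are also expressed by macrophages, and Fabp4 and Cd36 by endothelial cells of small vessels.

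Values are log2(intensity + 16) after quantile normalization between arrays, a scale that understates the change of dim genes. The number of arrays limits the precision. As deposited, the median intensity of an array lay between 60.9 and 86.2 in the SGCF arm and between 102.4 and 142.0 in the 6TCF arm, so a processing batch and the arm cannot be told apart, while comparisons between days lie within an arm. Across genes, which are no independent replicates, Pearson's r was 0.985 to 0.996 between arrays that share a group. The log2 excess of 3′ over 5′ actin control signal, a measure of RNA quality, was 0.27 to 0.47 over the SGCF arrays. Over the 6TCF arrays it was 0.29 and 0.38 at day 0, 0.74 and 0.85 at day 5 and 1.01 on both day 10 arrays. In the 6TCF arm it thus rose with the day and cannot be told apart from it. The same measure for Gapdh was -0.05 to 0.17 over the SGCF arrays and 0.33 to 0.58 over the 6TCF arrays, so the arms did not overlap on it. The part of these measures in the results below was not tested. All 12 fibroblast markers examined were above the level of the filter, log2 5.27, in every group. In bulk cultures fewer cells of a type and less RNA per cell cannot be told apart.

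By day 10 most of the 9 genes were higher than at day 0 in both arms. Fabp4, Adipoq, Cebpa, Cebpb and Cebpd rose in both. Lpin1 rose under SGCF and fell under 6TCF, Lpl rose under 6TCF and Cd36 fell under SGCF. Pparg rose under SGCF and was not called under 6TCF, and the difference between the arms was not called for it.

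By day 10 of SGCF, 8 of the 9 genes were called at a limma adjusted p under 0.05, 7 higher and 1 lower, where 38.6% of all genes tested were called, 20.4% higher and 18.2% lower. By day 10 of 6TCF, 7 were called, 6 higher and 1 lower, where 43.2% of all genes were called, 23.2% higher and 20% lower. The median log2 change of the 9 was 1.28 under SGCF, against 0.03 over all genes, and 0.59 under 6TCF, against -0.01 over all genes. By day 5 of SGCF, 1 member was higher and 2 were lower, where 25.4% of all genes were called, 12.8% higher and 12.6% lower. By day 5 of 6TCF, 3 were higher and 1 was lower, where 27.6% of all genes were called, 15.1% higher and 12.5% lower. That count of 4 was 2 without 6TCF day 0 replicate 1 and 2 without 6TCF day 0 replicate 2. Between days 5 and 10 of SGCF, 8 were higher and 0 lower, where 21.6% of all genes were called, 11.7% higher and 9.9% lower. Of all genes called in that step 54.1% were higher, and 40.3% with median scaling of the arrays. Between days 5 and 10 of 6TCF, 3 were higher and 1 was lower, where 15.6% of all genes were called, 8.6% higher and 7.01% lower. That count of 4 was 2 without 6TCF day 5 replicate 1, 2 without 6TCF day 5 replicate 2 and 2 without 6TCF day 10 replicate 1.

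**Figure D1:**
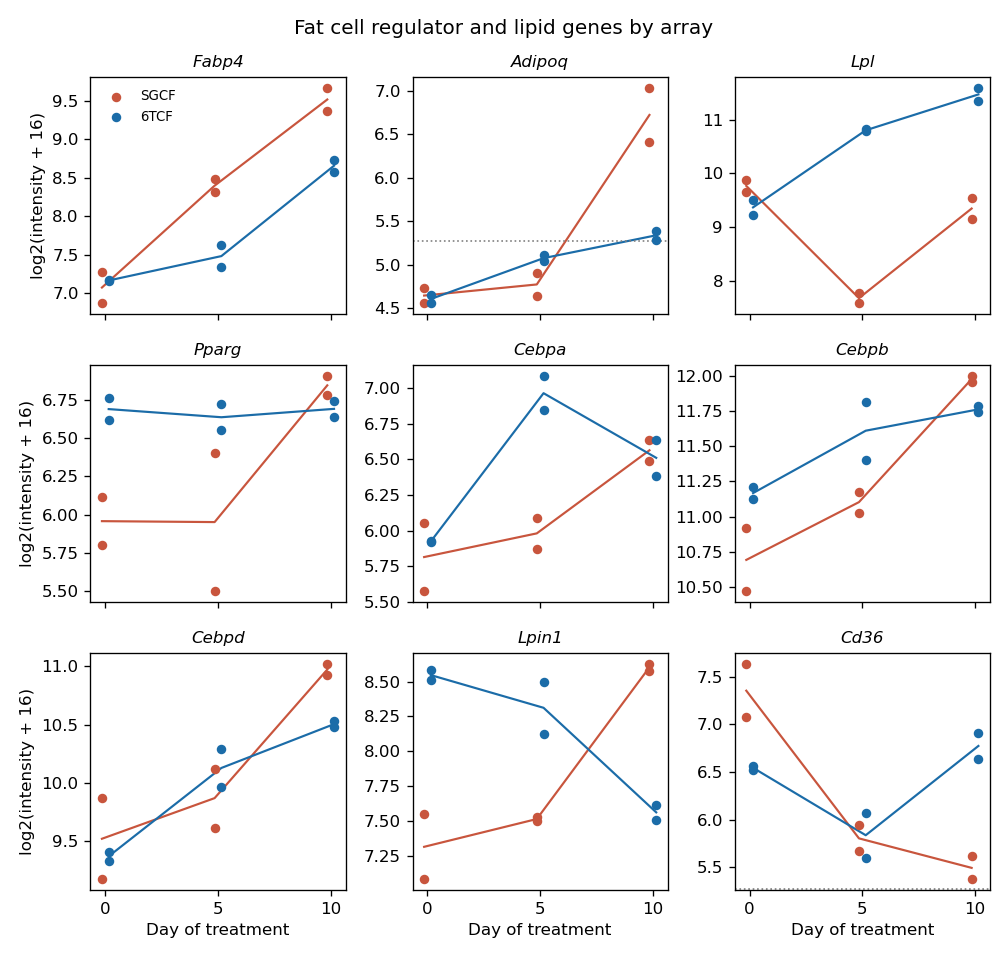
Normalized level, log2(intensity + 16), of each of the 9 genes against the day of treatment, with 1 point per array and a line through the mean of the 2 arrays of a group, SGCF in red and 6TCF in blue. The dotted line marks the filter at log2 5.27, and Adipoq lies above it in both SGCF day 10 arrays, at 6.41 and 7.03.

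Cebpb encodes C/EBP beta, which is induced within hours of an adipogenic stimulus in cultured preadipocytes. Its level was 10.92 and 10.47 in the SGCF day 0 arrays, 11.03 and 11.18 at day 5 and 11.9975 and 11.95 at day 10. Under 6TCF it was 11.21 and 11.13 at day 0, 11.40 and 11.82 at day 5 and 11.74 and 11.78 at day 10. In each arm both day 10 arrays stood above both day 0 arrays. Cebpb rose by 1.28 ± 0.17 (SE) by day 10 of SGCF (adjusted p = 9.31e-05) and by 0.59 ± 0.17 by day 10 of 6TCF (adjusted p = 0.0131, and 0.0516, 0.0626 and 0.0776 without 6TCF day 10 replicate 1, day 10 replicate 2 and day 0 replicate 2). A further probe set of Cebpb gave 1.27 ± 0.13 and 0.67 ± 0.13 in the same comparisons. By day 5 the change was 0.41 ± 0.17 under SGCF (adjusted p = 0.0966) and 0.44 ± 0.17 under 6TCF (adjusted p = 0.0708), where the further probe set gave 0.62 ± 0.13 under 6TCF (adjusted p = 0.00692). The step between days 5 and 10 was 0.87 ± 0.17 under SGCF (adjusted p = 0.00294) and 0.15 ± 0.17 under 6TCF (adjusted p = 0.57).

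Cebpd, whose product C/EBP delta acts beside C/EBP beta, had levels of 9.17 and 9.87 at day 0 of SGCF, 10.12 and 9.61 at day 5 and 10.93 and 11.02 at day 10. The 6TCF levels were 9.40 and 9.33, 9.96 and 10.29, and 10.48 and 10.53. The SGCF arrays of days 0 and 5 overlapped, and the day 10 arrays lay above them. By day 10 Cebpd rose by 1.46 ± 0.22 under SGCF (adjusted p = 0.000281) and by 1.14 ± 0.22 under 6TCF (adjusted p = 0.00138). The dimmer of its 2 probe sets gave 0.43 ± 0.36 and 0.17 ± 0.36, and with the mean of both the 6TCF change was 0.65 and not called (adjusted p = 0.0557). From day 5 to day 10 Cebpd rose by 1.11 ± 0.22 under SGCF (adjusted p = 0.00372, and 0.0667 with the mean of both probe sets), and its change under 6TCF was 0.38 ± 0.22 (adjusted p = 0.262). By day 5 of SGCF its change was 0.35 ± 0.22 (adjusted p = 0.281). The rise by day 5 of 6TCF, 0.76 ± 0.22 (adjusted p = 0.0229), lost its call without 6TCF day 0 replicate 1, day 0 replicate 2 or day 5 replicate 2 (adjusted p = 0.0798, 0.116 and 0.151). It was also lost with median scaling (0.66, adjusted p = 0.0558) and with the mean of both probe sets (0.44, adjusted p = 0.237).

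Cebpa encodes C/EBP alpha, a factor of the later phase of fat cell formation. It was at 6.05 and 5.57 at day 0 of SGCF, 6.09 and 5.87 at day 5 and 6.49 and 6.64 at day 10. With 6TCF it was at 5.92 and 5.93, then at 7.09 and 6.84 at day 5 and at 6.64 and 6.39 at day 10. Under 6TCF both day 5 arrays were above all other arrays of the study. Cebpa rose by 1.04 ± 0.17 by day 5 of 6TCF (adjusted p = 0.000678) and stood 0.59 ± 0.17 above day 0 at day 10 (adjusted p = 0.015, and 0.0695, 0.0668 and 0.125 without 6TCF day 0 replicate 1, day 0 replicate 2 and day 10 replicate 1). Under SGCF its change by day 5 was 0.17 ± 0.17 (adjusted p = 0.526) and its rise by day 10 was 0.75 ± 0.17 (adjusted p = 0.0044). The SGCF step from day 5 to day 10, 0.58 ± 0.17 (adjusted p = 0.0291), was not called without any 1 of the 4 arrays compared (adjusted p = 0.0533 to 0.16). The 6TCF step was -0.45 ± 0.17 and not called (adjusted p = 0.0884, and 0.0351 and 0.0344 without SGCF day 0 replicate 1 and replicate 2).

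Pparg, the nuclear receptor gene at the centre of the cascade, moved least in level among the 9. In the SGCF arm its level was 6.11 and 5.80 at day 0, 5.50 and 6.40 at day 5 and 6.78 and 6.90 at day 10. In the 6TCF arm it was 6.62 and 6.76, 6.72 and 6.55, and 6.64 and 6.74. The SGCF day 5 arrays differed from each other by more than the means of any 2 groups did. Pparg rose by 0.89 ± 0.23 by day 10 of SGCF (adjusted p = 0.00989), and both arrays were then slightly above the 6 arrays of the 6TCF arm. That call was lost without SGCF day 0 replicate 2 or SGCF day 10 replicate 2 (adjusted p = 0.0734 and 0.0578) and with all 4 day 0 arrays as 1 group (0.52, adjusted p = 0.169). The step from day 5 to day 10 of SGCF was 0.89 ± 0.23 (adjusted p = 0.0166), and 0.45 (adjusted p = 0.124) without SGCF day 5 replicate 1. It was also not called without SGCF day 10 replicate 1 or 2 (adjusted p = 0.0527 and 0.095). By day 5 its change was -0.01 ± 0.23 under SGCF (adjusted p = 0.988) and -0.05 ± 0.23 under 6TCF (adjusted p = 0.898). By day 10 of 6TCF its change was 0.002 ± 0.23, with a 95% interval of -0.50 to 0.51. One probe set read Pparg, and the array does not separate its transcripts.

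The stretch of 250 bases before the start of 6 of the 9 genes could be read from RefSeq (GRCm38.p6), and 4 are shown because Cebpb, Cebpa and Adipoq rose together by day 10 in both arms and because Pparg is the receptor between them. Fabp4, Lpl and Cebpd had no entry in the table. Capitals mark matches, on either strand, to TGACG (the half-site of CREB), TTGCNNAA (a C/EBP site), AGGTCA (a nuclear receptor half-site), TATAAA and CCAAT, and no 2 matches overlapped in these windows. A match describes these letters and not a bound site.
Cebpb, chr2:167688665-167688914, plus strand: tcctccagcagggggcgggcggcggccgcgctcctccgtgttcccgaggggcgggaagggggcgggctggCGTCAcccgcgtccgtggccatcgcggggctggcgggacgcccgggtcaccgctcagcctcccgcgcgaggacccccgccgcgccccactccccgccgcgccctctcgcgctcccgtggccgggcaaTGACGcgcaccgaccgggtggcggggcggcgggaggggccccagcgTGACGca
Cebpa, chr7:35119043-35119292, plus strand: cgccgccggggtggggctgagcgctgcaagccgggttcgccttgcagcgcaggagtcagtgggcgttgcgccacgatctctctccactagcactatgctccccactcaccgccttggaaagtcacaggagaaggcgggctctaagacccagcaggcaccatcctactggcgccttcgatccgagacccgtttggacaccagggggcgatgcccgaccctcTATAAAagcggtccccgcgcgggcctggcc
Adipoq, chr16:23146286-23146535, plus strand: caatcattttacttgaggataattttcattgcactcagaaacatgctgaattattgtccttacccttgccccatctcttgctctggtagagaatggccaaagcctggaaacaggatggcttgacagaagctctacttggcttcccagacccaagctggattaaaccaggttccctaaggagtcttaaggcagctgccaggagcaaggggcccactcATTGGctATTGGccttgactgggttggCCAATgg
Pparg, chr6:115421816-115422065, plus strand, the last of 3 starts: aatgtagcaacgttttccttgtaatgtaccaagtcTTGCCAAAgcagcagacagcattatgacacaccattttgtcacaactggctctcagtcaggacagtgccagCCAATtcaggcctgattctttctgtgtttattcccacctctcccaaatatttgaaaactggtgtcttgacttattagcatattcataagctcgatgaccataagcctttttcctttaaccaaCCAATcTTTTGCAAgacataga

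The Cebpb window held 3 matches to TGACG, a motif found in 17.8% of 32851 promoter windows of the same length, and the other 7 windows of the members held none. The last Pparg window held 2 matches to TTGCNNAA, which 9.56% of all windows hold, and no other member window held one. AGGTCA, found in 14% of all windows, was in the windows of the other two Pparg starts, of Lpin1 and of Cd36. The Adipoq window held 3 CCAAT matches within 34 bases of the start (33.8% of all windows hold at least 1), and the Cebpa window held TATAAA (12.4% of all windows).

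Adipoq encodes adiponectin, a hormone that differentiated fat cells secrete. Its level was 4.55 and 4.73 at day 0 of SGCF, 4.64 and 4.91 at day 5 and 6.41 and 7.03 at day 10. Its 6TCF levels were 4.56 and 4.65, then 5.04 and 5.11, then 5.39 and 5.29. The means of days 0 and 5 lay below the filter in both arms, so that Adipoq was tested because of its day 10 groups, and its fold changes are understated. Adipoq rose by 2.08 ± 0.18 by day 10 of SGCF (adjusted p = 3.71e-06), nearly all of it between days 5 and 10 (1.95 ± 0.18, adjusted p = 2.26e-05). By day 10 of 6TCF it rose by 0.73 ± 0.18 (adjusted p = 0.00634, and 0.0666 with a pseudocount of 64). By day 5 the change was 0.13 ± 0.18 under SGCF (adjusted p = 0.657) and 0.47 ± 0.18 under 6TCF (adjusted p = 0.0755, and 0.019 to 0.0234 in the 5 alternatives that called it). Both SGCF day 10 arrays lay above every other array.

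Fabp4, the fatty acid carrier that marks adipocytes and some macrophages, rose in both steps of SGCF and in the later step of 6TCF. Its brightest probe set read 6.87 and 7.28 at day 0 of SGCF, 8.31 and 8.48 at day 5 and 9.67 and 9.37 at day 10. On the 6TCF arrays it read 7.16 and 7.17, 7.63 and 7.33, and 8.74 and 8.58. No SGCF array of a later day overlapped with those of an earlier day. Fabp4 rose by 1.33 ± 0.17 by day 5 of SGCF (adjusted p = 0.000109) and by 2.45 ± 0.17 by day 10 (5.45-fold, adjusted p = 5.29e-07). By day 10 of 6TCF it rose by 1.49 ± 0.17 (2.82-fold, adjusted p = 2.47e-05), while the change by day 5 was 0.32 ± 0.17 (adjusted p = 0.192). From day 5 to day 10 it rose by 1.12 ± 0.17 under SGCF (adjusted p = 0.000558) and by 1.18 ± 0.17 under 6TCF (adjusted p = 0.00151). A second probe set gave 2.37 ± 0.38 by day 10 of SGCF (adjusted p = 0.000772) and 0.96 ± 0.38 by day 10 of 6TCF (adjusted p = 0.0718), with -0.36 ± 0.38 by day 5 of 6TCF (adjusted p = 0.585). The other 2 probe sets stayed near the floor, at 4.57 to 5.75 over all arrays. The summed intensity of the 8 measured endothelial markers was 645 and 593 at day 10 of SGCF, against 336 and 391 at day 0, and 513 and 596 at day 10 of 6TCF, against 424 and 344 at day 0. By day 10, 3 of the 8 rose and 1 fell in each arm. Of all genes tested 20.4% were higher and 18.2% lower under SGCF, and 23.2% and 20% under 6TCF. Kdr, a receptor gene for vascular endothelial growth factor, rose by 1.45 ± 0.14 under SGCF and by 0.47 ± 0.14 under 6TCF, Ramp2 by 1.34 ± 0.13 and 1.11 ± 0.13 and Esam by 0.78 ± 0.19 and 1.12 ± 0.19. Emcn fell by 0.44 ± 0.15 under SGCF, with means of 5.24 at day 0 and 4.79 at day 10 that both lay below the filter. Under 6TCF Emcn fell by 0.90 ± 0.15, and its day 0 mean there, 5.63, was its only group mean above the filter. Cdh5 was above the filter in both day 5 groups, and Pecam1, Tek, Tie1 and Vwf were below it in every group. The part of the endothelial markers in the Fabp4 values was not tested.

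Lpl, the lipoprotein lipase gene, moved in opposite directions by day 5 and rose in both arms from day 5 to day 10. In the SGCF arm its level was 9.66 and 9.88 at day 0, 7.58 and 7.77 at day 5 and 9.15 and 9.54 at day 10. In the 6TCF arm it was 9.22 and 9.51, 10.79 and 10.82, and 11.59 and 11.35. At day 5 the arms were separated by more than 3 log2 units in every pair of arrays. Lpl fell by 2.09 ± 0.16 by day 5 of SGCF (adjusted p = 2.26e-06) and rose by 1.67 ± 0.16 from day 5 to day 10 (adjusted p = 3.3e-05). At day 10 of SGCF it stood at -0.42 ± 0.16 against day 0, not called (adjusted p = 0.0621). It was called in 7 of the alternatives, with adjusted p from 0.0114 for the mean of both probe sets to 0.0498 without SGCF day 0 replicate 1. Under 6TCF it rose by 1.44 ± 0.16 by day 5 (adjusted p = 4.52e-05) and by 2.10 ± 0.16 by day 10 (4.30-fold, adjusted p = 1.32e-06). Its step from day 5 to day 10 of 6TCF was 0.67 ± 0.16 (adjusted p = 0.0199). That call was lost without 6TCF day 5 replicate 1, day 5 replicate 2 or day 10 replicate 1 (adjusted p = 0.115, 0.0554 and 0.167) and with all 4 day 0 arrays as 1 group (adjusted p = 0.0817). The fit with 1 day 0 group counts the day 0 difference between the arms as spread. The second, dimmer probe set of Lpl gave -2.19 ± 0.11 by day 5 of SGCF and 1.21 ± 0.11 by day 5 of 6TCF.

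**Figure D2:**
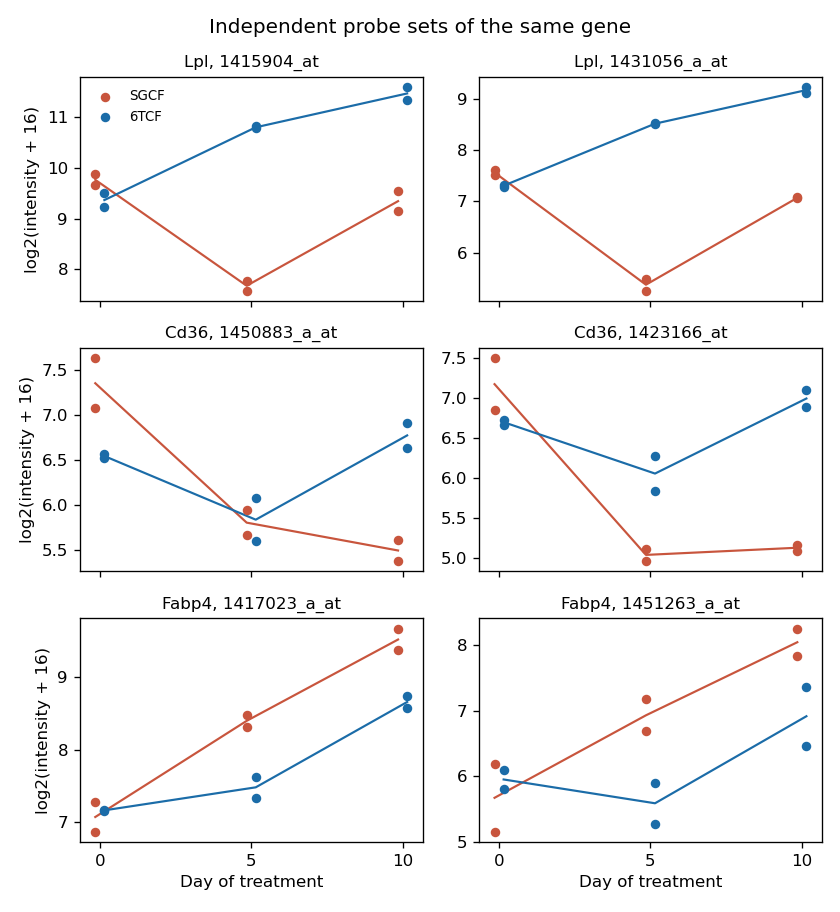
Levels, log2(intensity + 16), of the probe set used in the tests (left) and a further one (right) of Lpl, Cd36 and Fabp4 against the day of treatment, with 1 point per array and lines through group means, SGCF in red and 6TCF in blue. Both Lpl probe sets were lowest in the SGCF day 5 arrays, where the second read 5.26 and 5.49.

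Cd36 was the 1 member that fell by day 10 of SGCF. Its level was 7.07 and 7.64 at day 0 of SGCF, 5.94 and 5.67 at day 5 and 5.37 and 5.61 at day 10. In the 6TCF arm it was 6.52 and 6.57, 5.60 and 6.07, and 6.64 and 6.91. With this probe set both SGCF day 0 arrays were above all the other arrays of the study. With a second one SGCF day 0 replicate 1, at 6.85, was below both 6TCF day 10 arrays, at 6.89 and 7.10. Cd36 fell by 1.55 ± 0.21 by day 5 of SGCF (adjusted p = 0.000174) and by 1.86 ± 0.21 by day 10 (adjusted p = 2.77e-05). Under 6TCF it fell by 0.71 ± 0.21 by day 5 (adjusted p = 0.0245, and 0.0906, 0.116 and 0.202 without 6TCF day 0 replicate 1, day 0 replicate 2 and day 5 replicate 1). From day 5 to day 10 of 6TCF it rose by 0.94 ± 0.21 (adjusted p = 0.0131, and 0.127 and 0.0901 without 6TCF day 5 replicate 1 and day 10 replicate 2), and at day 10 it was 0.23 ± 0.21 from day 0 (adjusted p = 0.406). From day 5 to day 10 of SGCF its change was -0.31 ± 0.21 (adjusted p = 0.324). The second probe set fell by 2.05 ± 0.21 by day 10 of SGCF. Its SGCF means at days 5 and 10, 5.03 and 5.12, lay below the filter. A further probe set stayed near the floor, at 4.57 to 4.90.

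Most macrophage markers were lower at day 5 than at day 0 in both arms, as was Cd36. By day 5, 1 of the 17 measured rose and 15 fell under SGCF, and 1 rose and 14 fell under 6TCF. Of all genes tested 12.8% were higher and 12.6% lower under SGCF, and 15.1% and 12.5% under 6TCF. The summed intensity of the 17 measured markers was 8330.2 and 9195 at day 0 of SGCF, 1035 and 839.7 at day 5 and 800.03 and 926 at day 10. In the 6TCF arm it was 3968 and 3759, 1114 and 1279, and 2089.5 and 1983. Of the 17, 17, 12 and 9 stood above the filter at days 0, 5 and 10 of SGCF and 17, 11 and 14 at the same days of 6TCF, and Itgam passed it in no group. By day 10, 1 of the 17 rose and 16 fell under SGCF, and 1 rose and 12 fell under 6TCF, where Cd36 was not called. Of all genes tested 20.4% were higher and 18.2% lower under SGCF, and 23.2% and 20% under 6TCF. From day 5 to day 10 of 6TCF, 8 of the 17 rose and 0 fell, where 8.6% of all genes were higher and 7.01% lower. The 1 that rose by day 10 was Cd14, a receptor gene for bacterial lipopolysaccharide, by 0.83 ± 0.14 under SGCF and by 1.35 ± 0.14 under 6TCF. Among the others C1qa, a complement gene of resident macrophages, fell by 4.51 ± 0.14 by day 10 of SGCF. By day 10 of 6TCF C1qa fell by 1.92 ± 0.14. Lpl, also a macrophage gene, rose under 6TCF while this sum was lower at days 5 and 10 than at day 0. The part of the macrophage markers in the changes of Cd36, Lpl and Fabp4 was not tested. The summed intensity of 12 skeletal muscle markers, a further cell type that uses Cd36, was 4245 on 6TCF day 10 replicate 2 and 1176 on replicate 1, and 878 to 2189 on the other arrays. Its part in the Lpl and Cd36 values was not tested.

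**Figure D3:**
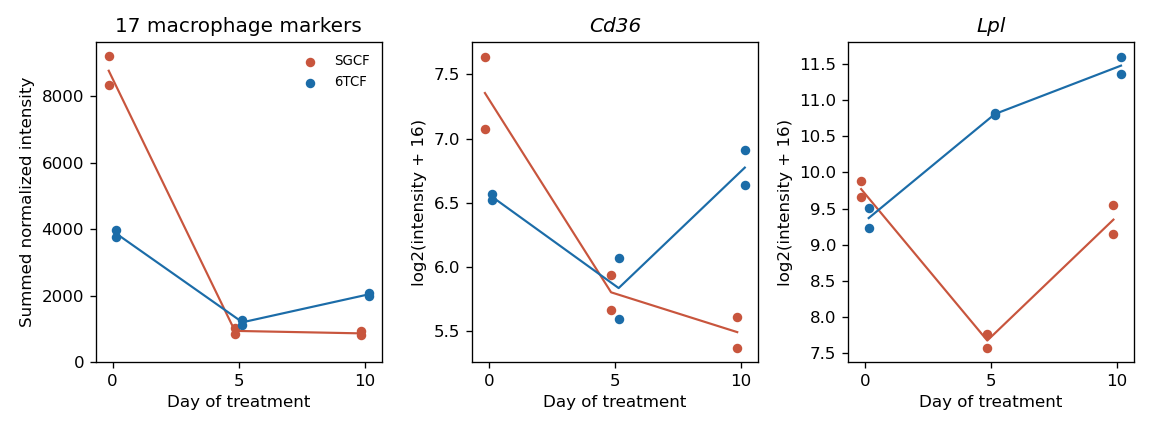
Summed normalized intensity of 17 macrophage markers (left, linear axis from 0) and levels of Cd36 and Lpl (log2(intensity + 16)) against the day of treatment, with 1 point per array and lines through group means, SGCF in red and 6TCF in blue. At day 5 the sum was 1035 and 839.7 under SGCF and 1114 and 1279 under 6TCF, below every day 0 array, as was Cd36, while Lpl separated the arms.

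Lpin1 encodes lipin 1, which makes diacylglycerol for triglyceride synthesis and also acts as a coactivator in the nucleus. In the SGCF arm its level was 7.55 and 7.08 at day 0, 7.49 and 7.53 at day 5 and 8.63 and 8.58 at day 10. In the 6TCF arm it was 8.51 and 8.58, 8.13 and 8.50, and 7.50 and 7.62. The arms had changed places by day 10. Lpin1 rose by 1.29 ± 0.16 by day 10 of SGCF (adjusted p = 7.6e-05) and fell by 0.99 ± 0.16 by day 10 of 6TCF (adjusted p = 0.000492). Its second probe set gave 0.92 ± 0.19 and -1.04 ± 0.19. By day 5 its change was 0.20 ± 0.16 under SGCF (adjusted p = 0.418) and -0.23 ± 0.16 under 6TCF (adjusted p = 0.336). From day 5 to day 10 Lpin1 rose by 1.09 ± 0.16 under SGCF (adjusted p = 0.000598). In the same step of 6TCF Lpin1 fell by 0.75 ± 0.16 (adjusted p = 0.0123, and 0.0655 and 0.102 without 6TCF day 5 replicate 2 and day 10 replicate 1). With all 4 day 0 arrays as 1 group neither step was called (adjusted p = 0.0926 and 0.278). That fit counts the day 0 difference between the arms as spread. It therefore cannot decide whether these steps, which compare no day 0 array, hold. The starting levels differed as well, by -1.23 ± 0.16 for SGCF against 6TCF at day 0 (adjusted p = 0.000813). With all 4 day 0 arrays as 1 group the changes by day 10 were 0.67 (adjusted p = 0.157) and -0.37 (adjusted p = 0.431), and their difference was 1.04 (adjusted p = 0.0919).

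**Figure D4:**
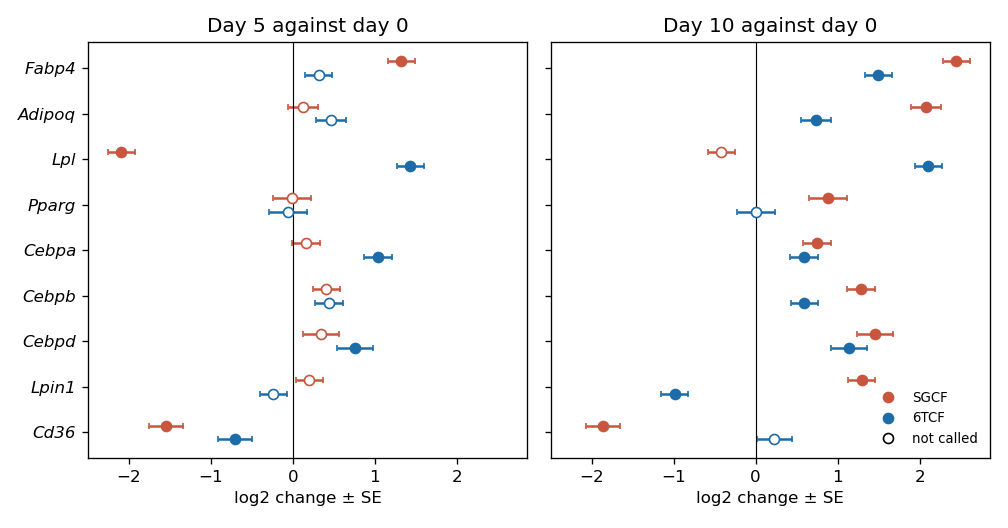
Log2 change from day 0 (horizontal axis, with SE bars) of the 9 genes by day 5 (left) and day 10 (right), SGCF in red and 6TCF in blue, filled where the limma adjusted p was under 0.05 and open otherwise. Lpl stood at -2.09 under SGCF and at 1.44 under 6TCF by day 5, and Lpin1 at 1.29 and -0.99 by day 10.

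Whether the change from day 0 differed between the arms was tested directly. By day 10 the difference was called for 5 of the 9 genes, 3 higher under SGCF and 2 lower, where 25.4% of all genes were called, 12.1% higher and 13.3% lower. Lpin1 (2.28 ± 0.23, adjusted p = 7.64e-05), Adipoq (1.35 ± 0.26, adjusted p = 0.00371) and Fabp4 (0.95 ± 0.24, adjusted p = 0.014) had the more positive change under SGCF. Adipoq passed the filter only through its day 10 groups, with means of 6.72 under SGCF and 5.34 under 6TCF, so its difference rests on levels near the floor. A second Fabp4 probe set gave 1.41 ± 0.53 and was not called (adjusted p = 0.0939). Lpl (-2.53 ± 0.23, adjusted p = 3.87e-05) and Cd36 (-2.09 ± 0.29, adjusted p = 0.000593) had the more positive change under 6TCF. The Fabp4 difference was not called without 6TCF day 10 replicate 2 (adjusted p = 0.05004) or SGCF day 10 replicate 1 (adjusted p = 0.0562).

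None of the 4 transcription factor genes was called for this difference by day 10 with the probe sets used in the tests. A further probe set of Cebpb gave 0.60 ± 0.19, just under the threshold (adjusted p = 0.0496). For Pparg the difference by day 10 was 0.88 ± 0.33 with a 95% interval of 0.17 to 1.60 (adjusted p = 0.0676), and for Cebpb it was 0.69 ± 0.24 with an interval of 0.17 to 1.21 (adjusted p = 0.052). These were called in 5 and 9 of the alternatives. For Cebpd it was 0.32 ± 0.31 (interval -0.36 to 1.00) and for Cebpa 0.16 ± 0.24 (interval -0.36 to 0.69).

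By day 5 the difference was called for 3 of the 9 genes, 1 higher and 2 lower, where 8.82% of all genes were called, 2.83% higher and 5.99% lower. They were Fabp4 (1.01 ± 0.24, adjusted p = 0.0194), Lpl (-3.53 ± 0.23, adjusted p = 5.88e-06) and Cebpa (-0.87 ± 0.24, adjusted p = 0.0428). A second Fabp4 probe set gave 1.62 ± 0.53 and was not called (adjusted p = 0.113). The count was 1 without 6TCF day 0 replicate 1, without 6TCF day 0 replicate 2, without 6TCF day 5 replicate 2 and without SGCF day 5 replicate 2, and Cebpa lost its call in 14 of the alternatives run (adjusted p up to 0.141). The other 6 members were not called, at -0.84 ± 0.29 for Cd36 (adjusted p = 0.108), 0.43 ± 0.23 for Lpin1, -0.41 ± 0.31 for Cebpd, -0.34 ± 0.26 for Adipoq, 0.05 ± 0.33 for Pparg and -0.03 ± 0.24 for Cebpb. A second Cd36 probe set was under the threshold, at -1.50 ± 0.29 (adjusted p = 0.0118), and a further one near the floor gave -0.07 ± 0.15.

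At day 0, 3 of the 9 genes differed between the arms, 1 higher in SGCF and 2 lower, where 17.1% of all genes were called, 8.46% higher and 8.68% lower. Lpin1 and Pparg (-0.73 ± 0.23, adjusted p = 0.0498) were lower and Cd36 (0.81 ± 0.21, adjusted p = 0.0231) was higher. The Pparg call was lost in 12 of the alternatives (adjusted p up to 0.236), 9 of which left out 1 array. The Cd36 call was lost in 5 (adjusted p up to 0.155), and its second probe set gave 0.48 ± 0.21 (adjusted p = 0.15). The other 6 members were not called, at -0.47 for Cebpb (adjusted p = 0.0716), 0.40 for Lpl (adjusted p = 0.113) and between -0.11 and 0.15 for Cebpa, Fabp4, Adipoq and Cebpd. A further probe set of Cebpb gave 0.14 ± 0.13, of opposite sign (adjusted p = 0.528). The count was 1 without 6TCF day 0 replicate 1, without 6TCF day 0 replicate 2 and without SGCF day 0 replicate 2. Of the 17 macrophage markers 15 were higher in SGCF at day 0 and 0 lower, and their part in the Cd36 value was not tested. Arm and array brightness coincide in this comparison.

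Across the 12 arrays, which share groups and normalization, the 9 genes formed no single pattern. Pearson's r was 0.86 between Adipoq and Cebpd, 0.85 between Fabp4 and Cebpd and 0.82 between Fabp4 and Adipoq. It was -0.08 between Fabp4 and Lpl, and Cd36 had an r between -0.58 and -0.37 with 7 of the other genes and of 0.34 with Lpl. These are descriptions over the same arrays, with no test.

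Among all 10674 genes, those most like each member over the 12 arrays were taken as the 3 with the highest r. For Lpl they were Fabp5, a fatty acid carrier gene of many cell types (r = 0.98), Htra1 (0.97) and Smoc2 (0.96). For Cd36 they were Blvra (0.96), Ms4a6d (0.96) and Ms4a6b (0.95). For Adipoq they were Kng1 (0.97), Tgfbr3 (0.96) and Lcn2 (0.95), and for Fabp4 Dcaf11 (0.96), Efnb3 (0.96) and Polr3gl (0.96). Cebpb was most like Abhd4 (0.98), Smpd1 (0.98) and Mmp2 (0.98), Cebpd like Enpp5 (0.96), Arrdc4 (0.96) and Txndc12 (0.95), Cebpa like Rgl1 (0.96), Arhgap20 (0.95) and Gramd3 (0.94), and Lpin1 like Mef2d (0.94), Diaph2 (0.94) and Kat6a (0.93). Pparg ranged over less than 1 log2 unit between groups and was not ranked.

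Other genes of the pathway are given by list, where 20.4% of all genes tested were higher and 18.2% lower by day 10 of SGCF, and 23.2% and 20% by day 10 of 6TCF. Of 18 listed genes of mature fat cells, 13 had a probe set naming them alone and 8 passed the filter. By day 10, 2 of the 8 were higher and 1 was lower under SGCF, and 1 was higher and 1 lower under 6TCF, with medians of -0.04 and -0.16. The SGCF count, 3 of 8, is near the 38.6% of all genes called. Lipe, the hormone-sensitive lipase gene, rose by 1.28 ± 0.21 under SGCF and by 1.26 ± 0.21 under 6TCF, while Plin4, a lipid droplet coat gene, fell by 0.70 ± 0.17 under SGCF. Under 6TCF Plin4 fell by 0.81 ± 0.17. The day 0 means of Lipe, 5.06 under SGCF and 4.86 under 6TCF, lay below the filter, so that Lipe was tested because of its later groups. Plin4 was above the filter only at day 0, and its day 10 means were 5.15 under SGCF and 4.84 under 6TCF. Cidec, Lep, Aqp7, Pck1 and Orm1 did not pass the filter in any group.

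Of 16 measured genes that take up, bind and store fatty acids, 6 rose and 5 fell by day 10 of SGCF (median 0.14), and 8 rose and 3 fell by day 10 of 6TCF (median 0.42), against 38.6% of all genes called under SGCF and 43.2% under 6TCF. Angptl4, whose protein inhibits lipoprotein lipase, rose by 2.18 ± 0.13 under SGCF and by 4.43 ± 0.13 under 6TCF. The lipoprotein gene Apoe rose by 1.76 ± 0.12 and 3.67 ± 0.12 and the lipoprotein receptor gene Vldlr by 1.73 ± 0.15 and 1.38 ± 0.15. Plin2, a droplet coat gene, rose by 1.08 ± 0.12 under SGCF and by 0.84 ± 0.12 under 6TCF. Those that fell by day 10 of SGCF were Cav1 (mean level 12.52 at day 0 and 11.52 at day 10), Cav2, Scarb1, Acsl5 and Mgll. Under 6TCF they were Cav1 (12.46 and 11.55), Cav2 and Fabp3. Fabp5 shared the course of Lpl, with -1.25 ± 0.11 by day 5 of SGCF and 0.63 ± 0.11 by day 5 of 6TCF.

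Fatty acid and triglyceride synthesis genes were 4 higher and 0 lower of 17 by day 10 of SGCF (median -0.06) and 2 higher and 4 lower under 6TCF (median -0.005), where 20.4% of all genes tested were higher and 18.2% lower by day 10 of SGCF, and 23.2% and 20% by day 10 of 6TCF. The fatty acid synthase gene Fasn fell by 1.47 ± 0.18 by day 10 of 6TCF and was at -0.04 ± 0.18 by day 10 of SGCF (adjusted p = 0.888), and Gpam, which starts glycerolipid synthesis, rose by 0.69 ± 0.17 under SGCF and by 0.96 ± 0.17 under 6TCF. Of 13 fatty acid oxidation genes, 4 rose and 0 fell under SGCF (median 0.21) and 5 rose and 0 fell under 6TCF (median 0.21). Among 11 relatives, partners and cofactors of PPAR and C/EBP, 3 rose and 1 fell under SGCF (median 0.08), and 2 rose and 1 fell under 6TCF (median -0.09). Ppargc1a, the PPAR gamma coactivator gene, was the largest of these, at 2.68 ± 0.25 under SGCF and 2.04 ± 0.25 under 6TCF. Its day 0 means, 4.57 under SGCF and 4.97 under 6TCF, lay below the filter, so that Ppargc1a was tested because of its later groups.

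Known activators of fat cell formation were 9 higher and 2 lower of 16 by day 10 of SGCF (median 0.51), and 5 higher and 5 lower under 6TCF (median 0.15), against 20.4% higher and 18.2% lower over all genes for SGCF and 23.2% and 20% for 6TCF. They included Bmp2, a ligand that commits progenitors, with 5.28 ± 0.26 and 3.70 ± 0.26, and Klf4, with -1.23 ± 0.21 and -1.62 ± 0.21. The Bmp2 mean at day 0 of SGCF, 5.26, was just below the filter. Of 18 inhibitors, 4 rose and 6 fell under SGCF (median -0.06) and 2 rose and 9 fell under 6TCF (median -0.41). Gata3, which represses Pparg in mouse preadipocytes, fell by 0.77 ± 0.18 under SGCF. Under 6TCF Gata3 fell by 2.30 ± 0.18. Dlk1, the preadipocyte factor 1 gene, was at 0.24 ± 0.15 under SGCF (adjusted p = 0.238) and rose by 1.37 ± 0.15 under 6TCF. Markers of fat progenitors were 6 higher and 1 lower of 11 under SGCF (median 0.60) and 7 higher and 3 lower under 6TCF (median 1.33). Cd34 was at 2.31 ± 0.14 and 1.84 ± 0.14. The receptor gene Pdgfra, also on the list of fibroblast markers, was at 1.86 ± 0.20 and 2.08 ± 0.20. The 3 lower under 6TCF were Pdgfrb (mean level 10.97 at day 0 and 9.36 at day 10), Cd24a (12.12 and 10.69) and Gsn (13.21 and 12.39). Under SGCF the Cd24a mean was 11.47 at day 0 and 10.42 at day 10.

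**Figure D5:**
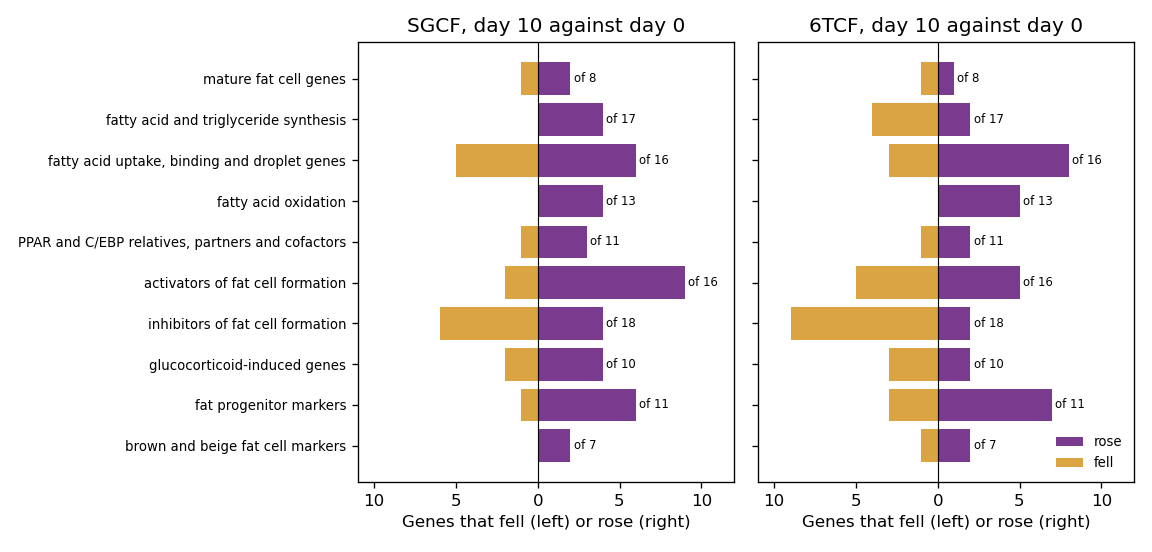
Number of genes of 10 lists that were called higher (right of 0, purple) or lower (left of 0, yellow) by day 10 against day 0 of SGCF (left) and of 6TCF (right), with the number measured beside each bar. Activators of fat cell formation were 9 higher and 2 lower under SGCF and 5 and 5 under 6TCF.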

How the data were processed

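Expression was measured on Affymetrix Mouse Genome 430A 2.0 arrays. The authors deposited 1 linear intensity per probe set and array. RMA, limma and MAS5 appear, with no role or version, per the submitters' processing notes, and the sources used here do not say which of them made the intensity values. Array medians differed, so the values were quantile normalized and analysed as log2(intensity + 16). Of 22690 probe sets, the platform annotation gave 20380 a single symbol and 691 more than 1, left 1555 unnamed and marked 64 as controls, and 20351 symbols were matched by Entrez number to RefSeq (GRCm38.p6). For each of 12393 genes the probe set with the highest mean was used. The filter kept the 10674 genes with at least 1 group mean over log2 5.27, the 25th percentile of the table. Linear models with moderated variances (limma 3.58.1, R 4.3.3) were fitted to all 12 arrays with 6 group means, 6 residual and 5.53 prior degrees of freedom and Benjamini-Hochberg adjustment over all 10674 genes. The fit was tested on simulated data. A gene is said to have risen or fallen at an adjusted p under 0.05. Errors are SE of the log2 change with 2 arrays a group. Changes of further probe sets come from the same fit on all probe sets with 1 symbol. Alternatives were other normalizations, pseudocounts, filters and probe set rules, the variance prior, the arrays in the fit, the replicate number as a block and leaving out each array. The members and gene lists were chosen with earlier results of these data known. All 9 members are described, called or not. From the other lists, genes were drawn from the 4 called with the largest change by day 10 in each arm. The fat progenitor markers that were lower by day 10 of 6TCF were named in addition, as were the fatty acid uptake, binding and droplet genes that were lower by day 10. Changes by days other than 10 are given for Fabp5, which was also named by its correlation with Lpl. Lists are described by counts and medians, with no set test.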

Additional observations from a re-analysis of the deposited data

Results flagged for a closer look

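In the limma test of the difference in change from day 0, 1 of the 9 genes was higher under SGCF and 2 lower by day 5. By day 10, 3 were higher and 2 lower. Of all genes tested 8.82% were called by day 5 and 25.4% by day 10. The log2 differences, SGCF minus 6TCF in the change from day 0, were 1.01 by day 5 and 0.95 by day 10 for Fabp4, 1.35 by day 10 for Adipoq, -3.53 by day 5 and -2.53 by day 10 for Lpl, -0.87 by day 5 for Cebpa, 2.28 by day 10 for Lpin1 and -2.09 by day 10 for Cd36. The Cebpa difference lost its call in 14 of the alternatives (adjusted p up to 0.141), the Fabp4 differences in 4 by day 5 (adjusted p up to 0.0755) and 2 by day 10 (adjusted p up to 0.0562), and that of Lpin1 with all 4 day 0 arrays as 1 group (adjusted p = 0.0919). At day 0 the arms differed by -1.23 for Lpin1 and by 0.81 for Cd36, whose call was lost in 5 of the alternatives (adjusted p up to 0.155). A second Fabp4 probe set was called in neither contrast, at 1.62 ± 0.53 by day 5 and 1.41 ± 0.53 by day 10. Adipoq passed the filter only through its day 10 groups. Arm cannot be told apart from batch. With groups of 2 arrays no single array could be tested as an outlier.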

How the results depend on the processing

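The log2 changes of the members were recomputed under the alternatives listed with the processing, except that a filter at the 50th percentile of the table removed Adipoq and Pparg, whose calls have no value there. Of the 1764 values obtained, 1651 kept direction and side of the threshold, 71 lost a call, 42 gained one and 0 called values reversed. The number of members called ranged, when 1 array was left out, from 2 to 5 by day 5 of 6TCF (4 with all arrays), from 2 to 5 between days 5 and 10 of 6TCF (4), from 1 to 4 at day 0 (3) and from 1 to 3 for the difference by day 5 (3). Taking all 4 day 0 arrays as 1 group, an alternative chosen after seeing the data, left 1 of 4 members called between days 5 and 10 of 6TCF. The replicate numbers did not pair the arrays, since the deviations of same-numbered arrays correlated at -0.27 to 0.11 (median -0.01 over 15 pairs of groups). With the replicate block the call of Pparg at day 0 was lost (adjusted p = 0.0575), which left 2 of 3, and no other call of a member changed. Over all genes, calls by day 5 of SGCF were 2711, and 1478 with only the arrays compared. They were 4120 and 2680 by day 10 of SGCF, and 1830 and 628 at day 0. Leaving out 1 array gave as few as 1750 of 2945 calls by day 5 of 6TCF, 1356 of 2302 between days 5 and 10 of SGCF, 560 of 941 for the difference by day 5 and 1424 of 2711 for that by day 10. It gave 358 to 2531 calls between days 5 and 10 of 6TCF (1666 with all arrays) and 376 to 2971 at day 0 (1830). With all 4 day 0 arrays as 1 group, 550 and 1480 genes were called between days 5 and 10 of 6TCF and of SGCF. Apart from the fewer arrays in such fits, the cause of these shifts was not tested. No detection calls were used here, so levels near the filter, such as Adipoq at days 0 and 5, set only a lower limit on how far a gene changed.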

Other observations

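Glucocorticoid-induced genes, whose inducers are part of standard adipogenic mixtures, were divided by day 10. Of 10 measured, 4 rose and 2 fell under SGCF, and 2 rose and 3 fell under 6TCF, with medians of 0.02 in both, where 20.4% of all genes tested were higher and 18.2% lower by day 10 of SGCF, and 23.2% and 20% by day 10 of 6TCF. Klf9 rose by 1.62 ± 0.19 under SGCF and was at 0.30 ± 0.19 under 6TCF (adjusted p = 0.228). Fkbp5, a glucocorticoid receptor target, fell by 1.45 ± 0.16 under SGCF and was at 0.05 ± 0.16 under 6TCF (adjusted p = 0.85). Glul, the glutamine synthetase gene, rose by 1.29 ± 0.17 under SGCF and by 1.68 ± 0.17 under 6TCF.

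Of 7 measured markers of brown and beige fat cells, 2 rose and 0 fell by day 10 of SGCF, and 2 rose and 1 fell by day 10 of 6TCF, against 20.4% higher and 18.2% lower over all genes for SGCF and 23.2% and 20% for 6TCF. Dio2, which activates thyroid hormone, rose by 5.58 ± 0.17 under SGCF and by 3.97 ± 0.17 under 6TCF, and the mitochondrial gene Cox7a1 was at -0.15 ± 0.13 under SGCF (adjusted p = 0.398) and rose by 1.97 ± 0.13 under 6TCF. Zic1 was the 1 that fell under 6TCF, at -0.69 ± 0.19 (adjusted p = 0.0117). Ucp1, the defining gene of thermogenic fat cells, did not pass the filter in any group.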
